A study of Mus musculus with 9 samples.

Results

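The genes described here are 8 long noncoding RNA and pseudogene transcripts of the mouse: Gm14267, 9130204K15Rik, Gm13284, Gm10076, Gm10241, Neat1, Malat1 and Gt(ROSA)26Sor. They were picked by name from the 29386 genes of the tables, of which 10418 carry a long noncoding RNA or pseudogene biotype. They were picked because their values differed strongly between groups in these same libraries, with the nuclear RNA Malat1 added beside Neat1, so their own values are given as a description and without a test. All 8 had a row in the brown fat and 4-OHT tables and 7 in the siRNA tables, where 9130204K15Rik was absent and was taken as 0 reads.

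SETDB1 is a histone methyltransferase, and 3 RNA-seq experiments examined its loss in brown fat. The first compared brown adipose tissue (BAT) of Setdb1 AKO mice with that of controls (2 libraries each). AKO mice were Setdb1 fl/fl with Adipoq-Cre, and controls were Setdb1 fl/fl without Cre. The library titles of both BAT groups hold the code TN_CE, which the labels do not explain. A condition shared by both groups is therefore not known here. The second compared primary brown adipocytes given 4-OHT at 1 μM with cells given the ETOH vehicle (1 library each). Cells of both arms were Setdb1 flox/flox and carried Cre-ERT2 at Rosa26, the locus that Gt(ROSA)26Sor transcribes. The third compared primary brown adipocytes transfected with siSetdb1 (2 libraries) and with siNC (1 library). Both siSetdb1 libraries carry the same treatment label, which does not say whether they were given the same siRNA. Adipoq-Cre acts in adipocytes, so the other cells of the AKO tissue keep Setdb1, and in a bulk sample fewer cells of a type and less RNA per cell cannot be told apart. Age was not stated in the sources used here, nor whether replicates came from separate animals or cultures, so the spread behind each p-value is that between these libraries alone and may be technical.

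Libraries held 15979479 to 16940622 reads on genes in BAT, 29911734 to 30176359 in the 4-OHT experiment and 17593799 to 18468152 in the siRNA experiment. Setdb1 itself had 156 and 191 normalised counts in AKO BAT, against 455 and 473 in control BAT (log2 difference −1.42, adjusted p = 0.0216, limma with Benjamini-Hochberg adjustment over all genes tested). It had 632 in 4-OHT cells against 1050 in ETOH cells. In siSetdb1 cells it had 371 and 399, against 784 in siNC cells (adjusted p = 0.0526, limma). All 8 brown adipocyte markers examined had reads in every library. Their summed level was 15192 to 20468 CPM (read counts scaled to a common library total) in AKO BAT and 17025 to 18645 in control BAT. These 8 include Elovl3, which was itself higher in both AKO BAT libraries (log2 differences 4.18 and 4.36). Their sum without Elovl3 was not computed. The 5 T and B cell markers summed to 318 and 550 CPM in AKO BAT, against 8.85 and 6.38 in control BAT. Without Ighm, the immunoglobulin heavy chain gene, the other 4 summed to 2.41 and 1.93 CPM in AKO BAT, against 5.25 and 3.50 in control BAT. Erythroid markers summed to 733 and 738 CPM in AKO BAT, against 504 and 541 in control BAT. Endothelial markers summed to 499 and 460 CPM in AKO BAT, against 511 and 526 in control BAT. Sums for macrophages, fibroblasts, skeletal muscle and Schwann cells overlapped between the BAT groups. The part of these cell types in the values below was not tested.

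SETDB1 places trimethyl marks on lysine 9 of histone H3 and is best known for silencing endogenous retroviruses and tissue-restricted genes together with KRAB zinc finger proteins and KAP1. Long noncoding RNAs are transcribed like messenger RNAs but are not translated, and several act inside the nucleus. Neat1 is the RNA scaffold of paraspeckles, nuclear bodies that hold proteins such as NONO and SFPQ, and its neighbour Malat1 is concentrated in nuclear speckles, where splicing factors are stored. Pseudogenes are gene copies that have lost their coding function. A processed pseudogene arises when a messenger RNA is reverse transcribed and inserted elsewhere, so its reads can be hard to separate from those of the parent gene.

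Each printed sequence is read 5′ to 3′ from the GENCODE M21 transcript of the gene, on GRCm38. The first pair shows the ends that the long Neat1 isoform and Malat1 have in common in place of an ordinary poly(A) tail, which bears on libraries made with oligo(dT) beads. The short Neat1 isoform ends in an ordinary poly(A) tail. The Neat1 stretch is chr19:5824708-5824837 and the Malat1 stretch chr19:5795982-5796111, both on the minus strand. The annotated Malat1 transcript runs on past this stretch, which ends at base 6691 of 6983. Capitals mark the A-rich motif AAAAAGCAAAA, which is the last 11 bases of Neat1, and the U-rich motif TTTTGCTTTT, which can pair with 10 of them. Both were searched on the transcript strand, where they cannot overlap.
Neat1: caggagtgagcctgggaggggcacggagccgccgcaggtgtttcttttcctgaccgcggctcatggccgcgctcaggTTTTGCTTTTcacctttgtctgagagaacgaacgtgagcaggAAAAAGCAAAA
Malat1: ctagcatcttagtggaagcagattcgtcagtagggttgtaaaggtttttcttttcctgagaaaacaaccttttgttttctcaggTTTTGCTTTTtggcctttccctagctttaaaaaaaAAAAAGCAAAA
TTTTGCTTTT followed within 60 bases by AAAAAGCAAAA occurred in 4 of 141767 mouse transcripts (0.00282%), which belong to 3 genes: Neat1, Malat1 and Retreg3. The longest run of A was 12 bases in Malat1, which lies in the stretch printed, and 7 bases in Neat1.

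The next 4 sequences show how closely these genes follow a related coding gene. Gm14267 (chr2:166500649-166500768, minus strand) is given with capitals where it differs from the coding sequence of Ppia, the gene of cyclophilin A. Gm13284 (chr4:88763709-88763828, plus strand) is given with capitals where it differs from Gm13283, the coding gene of the interferon cluster next to it. Gm10241 (chr16:20176863-20176982, minus strand) had no base that differed from Sumo2, which codes for a ubiquitin-like modifier. Gm10076 (chr14:105681869-105681946, plus strand) is shown over its short reading frame, start and stop codon in capitals, which is the whole coding sequence of the ribosomal protein gene Rpl41.
Gm14267: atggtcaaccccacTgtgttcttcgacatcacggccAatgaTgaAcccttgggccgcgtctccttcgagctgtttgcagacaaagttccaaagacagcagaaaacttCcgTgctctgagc
Gm13284: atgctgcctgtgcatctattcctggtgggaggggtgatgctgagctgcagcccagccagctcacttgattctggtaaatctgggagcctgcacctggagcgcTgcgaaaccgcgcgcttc
Gm10241: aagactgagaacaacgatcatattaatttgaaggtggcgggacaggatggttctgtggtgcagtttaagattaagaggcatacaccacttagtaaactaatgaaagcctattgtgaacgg
Gm10076: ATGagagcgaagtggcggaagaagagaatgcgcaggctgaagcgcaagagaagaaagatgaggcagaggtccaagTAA
Gm14267 differed from Ppia at 6 of 120 bases and Gm13284 from Gm13283 at 1 of 120, while Gm10076 matched Rpl41 over all 78 bases. Over the whole transcripts, every stretch of 31 bases of Gm10241 (100%) also occurs in another gene's transcripts. The share was 84.2% for Gm10076, 82.2% for Gm13284, 7.0% for Gt(ROSA)26Sor, 6.8% for Malat1, 5.4% for 9130204K15Rik, 3.9% for Gm14267 and 2.2% for Neat1. How reads that map to several places were counted is not given in the sources used here, so the counts of Gm10241, Gm10076 and Gm13284 are uncertain, and those of the other 5 rest mostly on sequence of their own.

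The last sequence is the start of Gt(ROSA)26Sor (chr6:113077214-113077333, minus strand), shown because a coding gene starts beside it on the other strand. Its 14 CG dinucleotides in 120 bases are in capitals.
Gt(ROSA)26Sor: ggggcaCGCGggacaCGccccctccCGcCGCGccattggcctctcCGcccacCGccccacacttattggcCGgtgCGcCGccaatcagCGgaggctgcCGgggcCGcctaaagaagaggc

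Of the 8 genes, 3 were higher in both AKO BAT libraries than in both controls, 3 were lower in both and 2 overlapped. Of the 6 that passed the filter on low counts in BAT, 1 was higher and 3 lower with no overlap between groups, against 25.1% and 24.9% of all genes tested (50% in all). The fit across all genes called 3 of these 6 in BAT, against 1.68% of all genes tested. Since the genes were chosen on that contrast, nothing is read from this count. In 4-OHT cells 5 were at least 2-fold higher than in ETOH cells and 1 at least 2-fold lower, against 1.28% and 1.65% of all genes. In siSetdb1 cells, 3 of the 6 that passed the filter lay above the single siNC value in both libraries and 1 below it, against 34.1% and 33.8% of all genes tested (68.0% in all).

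**Figure D1:**
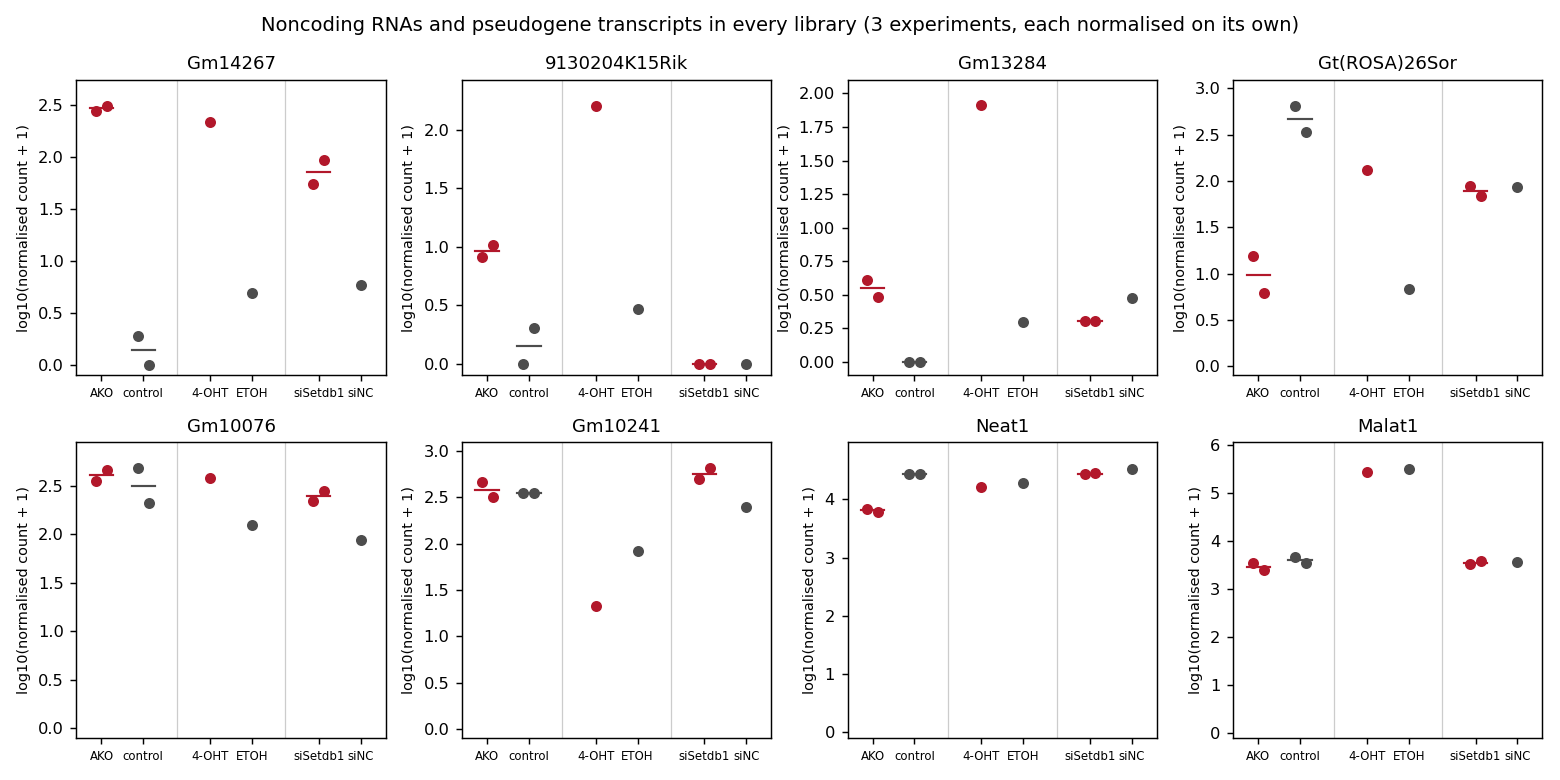
Log10 of the normalised count plus 1 for each of the 8 genes in every library; red points are AKO, 4-OHT and siSetdb1 libraries, grey points their controls, and short lines the means of groups with 2 libraries. Gm14267 stands above its control in all 3 experiments, Gt(ROSA)26Sor is low in AKO BAT and high in 4-OHT cells, and Neat1 is low in AKO BAT.

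Gm14267, a transcribed processed pseudogene (chr2:166500036-166522373, minus strand), was near 0 in every control and higher with Setdb1 loss in all 3 experiments. Besides the Ppia copy, its annotation holds spliced transcripts with 13 exon blocks in all and 3153 exonic bases. It had 278 and 312 normalised counts in AKO BAT, against 0.917 and 0 in control BAT. In reads this was 572 against 1, a ratio of 612 with a 95% exact interval of 109 to 24203. The 4-OHT library held 213 counts and the ETOH library 4, a ratio of 55.2 (95% interval 21.3 to 205). The siSetdb1 libraries had 53.7 and 93.7 normalised counts, against 4.93 in siNC cells, a ratio of 14.9 (95% interval 6.25 to 46.7). No control library reached the level of any Setdb1-depleted library. These intervals, from read counts, cover counting error only. The 3 experiments were normalised separately, and Gm14267 had 16.3 and 18.8 CPM in AKO BAT, 7.06 in 4-OHT cells and 2.99 and 5.23 in siSetdb1 cells.

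9130204K15Rik, a long intergenic noncoding RNA (lincRNA; chr11:79781979-79872394, minus strand), was also near 0 in controls, with a high level only in the 4-OHT library. It had 158 counts in 4-OHT cells and 2 in ETOH cells, a ratio of 82.0 (95% interval 22.3 to 683). AKO BAT held 7.20 and 9.29 normalised counts and control BAT 0 and 1.01, or 16 reads against 1. All 3 siRNA libraries stood at 0. Both AKO libraries lay above both controls, at a depth where few reads separate them.

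Gm13284, an unprocessed pseudogene (chr4:88763709-88771606, plus strand) of the type I interferon cluster, behaved alike in direction in BAT and 4-OHT cells. It had 79 counts in 4-OHT cells against 1 in ETOH cells, a ratio of 82.0 (95% interval 14.3 to 3278). AKO BAT held 3 and 2 reads and control BAT none. The ratio is 1.78 if the 2 controls together are set to 3 reads, the limit that a count of 0 allows. That ratio takes the 5 AKO reads as exact, so it is not a lower bound, and a rise in BAT is not established. In siSetdb1 cells it had 1 read in each library, against 2 in siNC cells, all below 3 reads. The coding gene Gm13283 ends 2128 bases before Gm13284 on the same strand and shares 62.3% of its 31-base stretches. Another 11 coding genes of the cluster share more, 70.2% to 73.3%. It had 6.17 and 4.13 normalised counts in AKO BAT and 0 in both controls, 160 in 4-OHT cells against 25.5 in ETOH cells, and 22.3 and 20.4 in siSetdb1 cells against 8.88 in siNC cells (adjusted p = 0.941, limma). In all, 21 genes shared at least 20% of these stretches, all on chromosome 4, and in 4-OHT cells the highest after Gm13283 was Gm13274, with 22.4 normalised counts against 10.8 in ETOH cells. Whether reads of Gm13283 were counted to Gm13284 was not tested.

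Gm10076, annotated as a lincRNA (chr14:105681828-105682211, plus strand), was higher in both cell culture experiments and not in tissue. It had 372 counts in 4-OHT cells against 127 in ETOH cells, a ratio of 3.04 (95% interval 2.48 to 3.75). The siSetdb1 libraries had 222 and 278 normalised counts, against 86.8 in siNC cells, a ratio of 2.88 (95% interval 2.29 to 3.65). AKO BAT had 356 and 462, and control BAT 479 and 210, so the groups overlapped and the control libraries were the highest and the lowest. Rpl41, which holds 82.2% of its 31-base stretches, was counted at far higher levels: 8756 and 6330 in AKO BAT against 7565 and 7325 in control BAT, and 7596 and 7323 in siSetdb1 cells against 7604 in siNC cells. Rpl41 did not pass the test in BAT (adjusted p = 1.00, limma) or in siRNA cells (adjusted p = 0.982, limma). Reads counted to Gm10076 were 3.55% of those counted to either gene in 4-OHT cells against 1.24% in ETOH cells, and 2.84% and 3.66% in siSetdb1 cells against 1.13% in siNC cells.

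Gm10241, the processed copy of Sumo2 (chr16:20176727-20177012, minus strand, within an intron of Yeats2 on the opposite strand), was lower in 4-OHT cells and higher in siSetdb1 cells than in their controls. It had 20 counts in 4-OHT cells against 84 in ETOH cells, a ratio of 0.247 (95% interval 0.144 to 0.406). The siSetdb1 libraries had 498 and 650 normalised counts, against 247 in siNC cells, a ratio of 2.32 (95% interval 2.03 to 2.68). The BAT groups overlapped, with 463 and 319 in AKO and 350 and 349 in control libraries.

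Sumo2 lay on the other side of its control from its copy in both cell culture experiments. Sumo2 had 297 normalised counts in 4-OHT cells against 181 in ETOH cells, and 247 and 107 in siSetdb1 cells against 666 in siNC cells (log2 difference −2.03, adjusted p = 0.137, limma). The sum of both genes differed less than either: 318 in 4-OHT cells against 263 in ETOH cells, and 745 and 757 in siSetdb1 cells against 913 in siNC cells. The share of that sum counted to Gm10241 ranged from 6.41% in the 4-OHT library to 85.9% in a siSetdb1 library. In BAT it was 68.0% and 53.2% in AKO against 54.9% and 62.9% in control libraries. The 2 siSetdb1 libraries also differed from each other, at 66.8% and 85.9%. Yeats2, the host gene on the other strand, had 865 normalised counts in 4-OHT cells against 1074 in ETOH cells, and 501 and 456 in siSetdb1 cells against 515 in siNC cells.

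**Figure D2:**
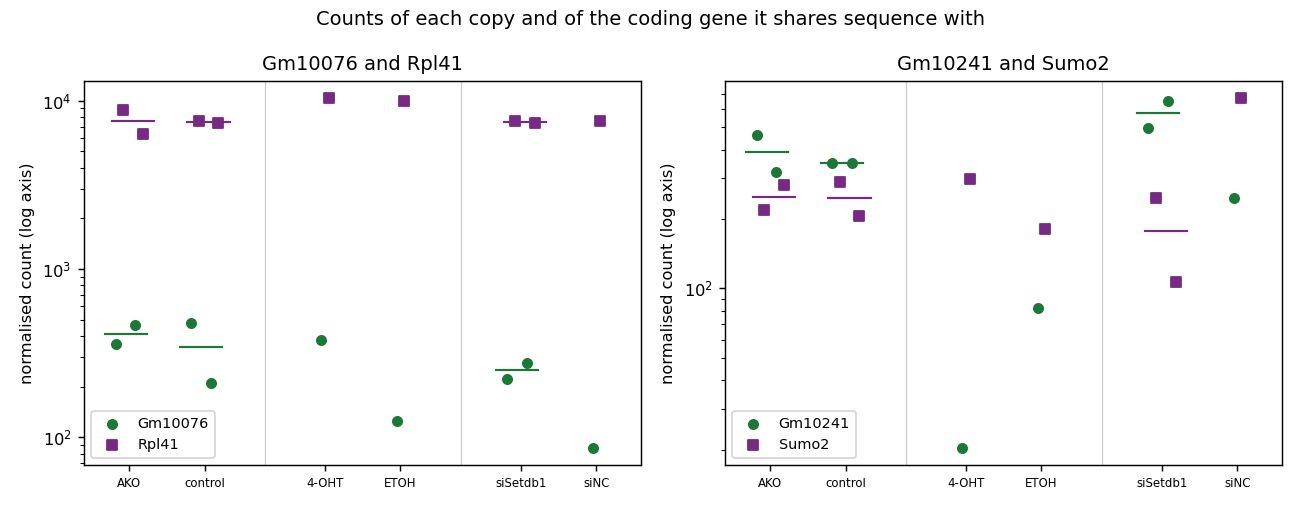
Normalised counts (log axis) of Gm10076 with Rpl41 and of Gm10241 with Sumo2 in every library, circles for the copy, squares for the coding gene and lines for means of 2 libraries. Rpl41 stays between 6330 and 10296 while Gm10076 varies, and Sumo2 is lowest where Gm10241 is highest in siSetdb1 cells.

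Neat1 (chr19:5824708-5845478, minus strand) was far below control in AKO BAT and lay closer to its control in the cells. AKO BAT had 6911 and 6061 normalised counts, against 27362 and 27773 in control BAT, or 23.5% of the control mean (6486 ± 601 against 27568 ± 291, SD, n = 2 each). The libraries of each group lay within a narrow range and the groups were far apart. In 4-OHT cells it had 15966 counts against 19436 in ETOH cells, 85.2% after scaling. In siSetdb1 cells it had 27012 and 28056 normalised counts, against 33620 in siNC cells, 81.9%. Every Setdb1-depleted library was below its own control. These are counts of the whole gene, so its short and long isoforms, which share a start, were not separated.

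Malat1 (chr19:5795690-5802672, minus strand), transcribed about 22 kb away in the same direction, lay closer to its control than Neat1 in BAT. AKO BAT had 3478 and 2495 normalised counts and control BAT 4579 and 3522, 73.7% of the control mean, with the higher AKO library just under the lower control. In 4-OHT cells it had 273573 counts against 324488 in ETOH cells, 87.5%. Values of 3304 and 3867 normalised counts in siSetdb1 cells lay on either side of the 3660 in siNC cells. Per Malat1 read there were 1.99 and 2.43 Neat1 reads in AKO BAT against 5.98 and 7.89 in control BAT. The figure was 0.0584 in 4-OHT cells against 0.0599 in ETOH cells, and 8.18 and 7.26 in siSetdb1 cells against 9.19 in siNC cells.

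Malat1 and the other lincRNAs took a larger share of reads in the 4-OHT experiment than in the others. Malat1 took 0.907% of reads in the 4-OHT library and 1.08% in the ETOH library, against 0.0151% to 0.0295% in BAT and 0.0184% to 0.0216% in the siRNA experiment. Without Malat1 and Neat1, lincRNA genes summed to 67133 CPM in the 4-OHT library and 66936 in the ETOH library, against 1677 to 2337 in each of the other 7. In the same 2 libraries 292 and 297 small nuclear RNA genes had reads, against 36 to 49 in the rest. All libraries are labelled as enriched with oligo(dT) beads. The part of library composition in the Malat1 levels was not tested, and levels are compared only within an experiment.

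**Figure D3:**
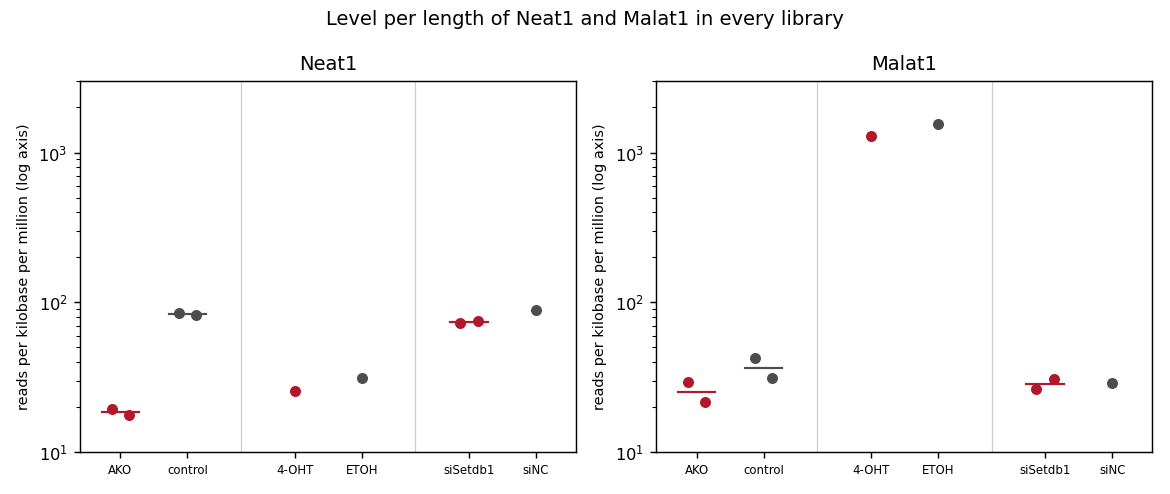
RPKM (CPM per kilobase of exon, log axis) of Neat1 and Malat1 in every library, with lines at the means of groups of 2. Neat1 in AKO BAT lies near 18.6 against 83.6 in control BAT, and Malat1 in the 4-OHT and ETOH libraries lies at 1298 and 1554.

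Gt(ROSA)26Sor, the noncoding RNA of the Rosa26 locus, which is widely used to express transgenes, was lower in AKO tissue and higher in 4-OHT cells than in their controls. The gene (chr6:113067428-113077333, minus strand) is annotated as antisense because its end overlaps the end of Thumpd3. AKO BAT had 14.4 and 5.16 normalised counts, against 647 and 335 in control BAT, or 1.99% of the control mean. Both AKO libraries were far below both controls, which themselves differed about 2-fold. In 4-OHT cells it had 129 counts against 6 in ETOH cells, a ratio of 22.3 (95% interval 9.97 to 61.9). Values of 88.2 and 67.2 normalised counts in siSetdb1 cells lay on either side of the 85.8 in siNC cells. In the same AKO libraries Setdb1 kept a larger share of its control level, with means of 174 and 464 normalised counts in AKO and control BAT. Both arms of the 4-OHT experiment carry the Cre-ERT2 insertion at this locus, and the BAT labels name no Rosa26 allele; its part in the values was not tested.

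The coding gene Setd5, a SET domain protein gene, starts 32 bases from Gt(ROSA)26Sor on the opposite strand and was also lower in AKO BAT. Setd5 had 780 and 801 normalised counts in AKO BAT, against 2006 and 1855 in control BAT (log2 difference −1.29 ± 0.14 SE, adjusted p = 0.0101, limma). In 4-OHT cells, where Gt(ROSA)26Sor was 22.3-fold higher, Setd5 had 3897 against 3980 in ETOH cells. In siSetdb1 cells it had 1412 and 1535, against 1386 in siNC cells (adjusted p = 0.955, limma). Thumpd3, which overlaps the other end, had 269 and 249 normalised counts in AKO BAT, against 294 and 268 in control BAT (adjusted p = 0.788, limma). Strandedness of the counting is not given in the sources used here, so reads in the overlap with Thumpd3 cannot be assigned by strand.

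**Figure D4:**
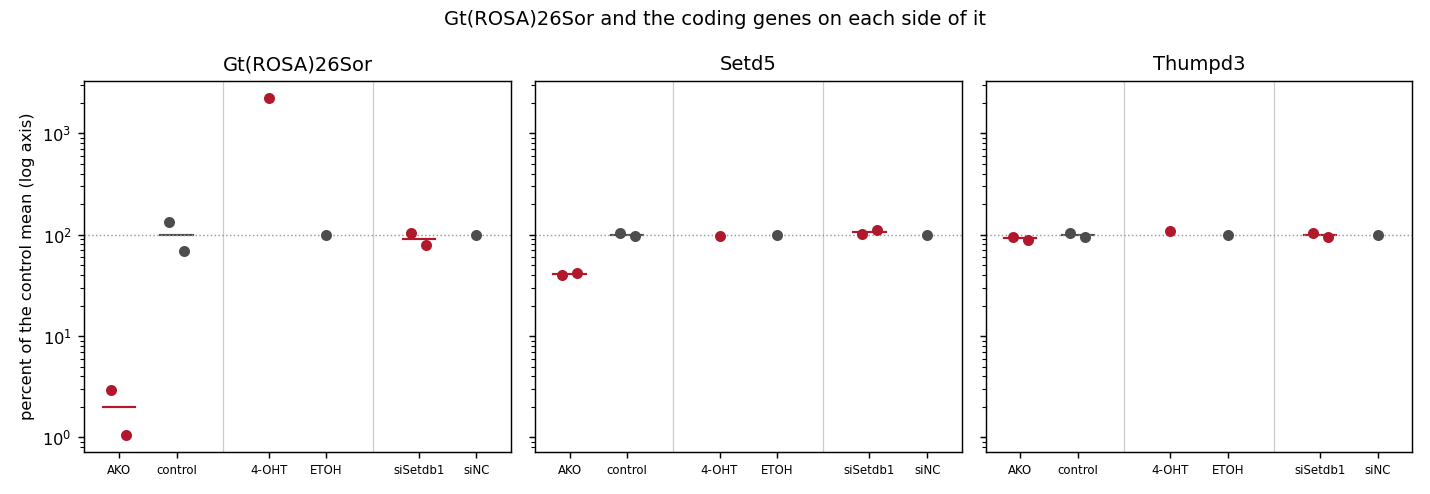
Level of Gt(ROSA)26Sor, Setd5 and Thumpd3 as a percent of the control mean of the same experiment (log axis, dotted line at 100%), 1 point per library and lines for means of 2. Gt(ROSA)26Sor stands at 2.94% and 1.05% in AKO BAT and at 2231% in 4-OHT cells, Setd5 at 40.4% and 41.5% in AKO BAT, and Thumpd3 near 100% throughout.

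Most genes around the 8 loci did not pass the test. Of 86 annotated genes within 100 kb, 22 passed the filter in BAT, with 3 called lower and none higher, against 0.677% and 1.0% of all genes tested; their median log2 difference was −0.14, against 0.01 over all genes. Beside Setd5 these were both near 9130204K15Rik and on its opposite strand. Rab11fip4, a RAB11 effector gene, had 26.8 and 23.7 normalised counts in AKO BAT, against 152 and 140 in control BAT (log2 difference −2.49, adjusted p = 0.0114, limma). Mir365-2, a microRNA gene, had 4.12 and 5.16, against 42.2 and 33.5 (log2 difference −2.78, adjusted p = 0.0470, limma). They lie 83956 and 55468 bases from the noncoding gene. In 4-OHT cells both were below the count minimum, with 35.7 against 30.4 for Rab11fip4 and 31.6 against 23.6 for Mir365-2.

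In siRNA cells none of the 23 neighbours tested was called, against 0.0394% of all genes (0.0328% higher and 0.00657% lower). Past 2-fold in both siSetdb1 libraries were Gm13283, described above, and Lhfpl4, which lies 90757 bases from Gt(ROSA)26Sor. By the mean difference, 630 of all 15224 genes tested were past 2-fold. The share past it in both libraries was not computed, so nothing is read from this count. Lhfpl4 had 10.1 and 9.17 normalised counts in siSetdb1 cells against 3.95 in siNC cells (log2 difference 1.11 ± 0.91 SE). It stood near the minimum of 10, where few reads separate the libraries. In 4-OHT cells 1 of 19 neighbours, Gm13283, was at least 2-fold higher, against 1.28% of all genes. Frmd8, the nearest measured neighbour of Neat1, had 315 and 343 normalised counts in AKO BAT against 364 in both control libraries. Prex1 beside Gm14267 had 177 and 163 in AKO BAT against 259 and 161 in control BAT. Utp6 beside 9130204K15Rik had 511 and 493 against 539 and 610, and Klhl9 beside Gm13284 had 846 and 932 against 878 and 852. 9330188P03Rik beside Gm10076 had 71.0 and 45.4 in AKO BAT against 62.4 and 61.9 in control BAT, and Klhl24 beside Gm10241 had 433 and 700 against 516 and 571. None of these 6 passed the test in BAT, where their adjusted p-values by limma ranged from 0.582 to 0.976.

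**Figure D5:**
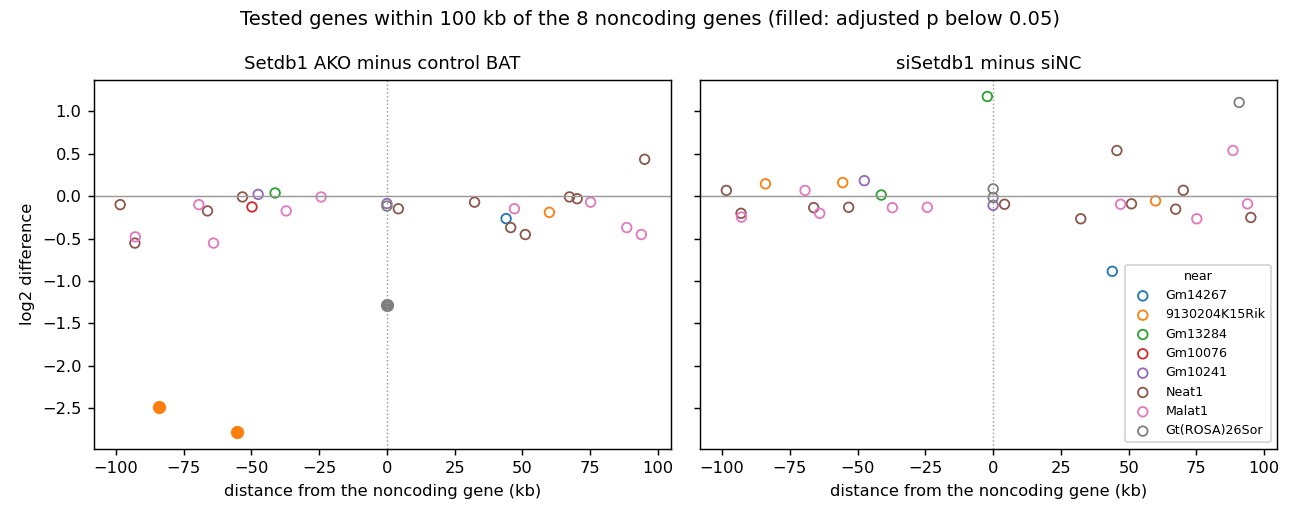
Log2 difference of tested genes within 100 kb of the 8 noncoding genes against their distance in kb, for AKO minus control BAT and for siSetdb1 minus siNC; filled points have an adjusted p below 0.05, and genes near both Neat1 and Malat1 appear at both distances. The 3 filled points, at −1.29, −2.49 and −2.78, are in BAT.

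Genes that work with Neat1 and Malat1 mostly did not pass the test. Of 22 genes for paraspeckle proteins, all tested in BAT, 1 fell and none rose, against 0.677% called lower and 1.0% higher of all genes tested. Their median log2 difference was −0.25 against 0.01 over all genes. Below 0 were 19 of the 22 values (86.4%), against 49.4% over all genes. The share below 0 was 72.7% in 4-OHT cells and 63.6% in siSetdb1 cells, against 48.3% and 50.7% over all genes. The gene that fell was Rbm14, which codes for a protein needed to build paraspeckles, with 268 and 344 normalised counts in AKO BAT against 700 and 647 in control BAT (log2 difference −1.15, adjusted p = 0.0354, limma). The core paraspeckle genes Nono and Sfpq had 1280 and 1326, and 3320 and 2652, in AKO BAT against 1340 and 1421, and 3799 and 3970, in control BAT, and were not called. In 4-OHT cells no paraspeckle gene was past 2-fold (median log2 −0.05), and in siSetdb1 cells none was called (median −0.07).

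Of 24 nuclear speckle and splicing factor genes, 1 fell in BAT and none rose, against the same 0.677% and 1.0% of all genes. Their median log2 difference was −0.13, against 0.01 over all genes. Below 0 were 16 of the 24 values (66.7%), against 49.4% over all genes. The share below 0 was 58.3% in 4-OHT cells and 45.8% in siSetdb1 cells, against 48.3% and 50.7% over all genes. The gene that fell in BAT was Clk1, a kinase of SR splicing factors. It had 1097 and 1019 normalised counts in AKO BAT against 1970 and 1900 in control BAT (log2 difference −0.87, adjusted p = 0.0354, limma). None was past 2-fold in 4-OHT cells (median −0.01) or called in siSetdb1 cells (median 0.05).

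Of 43 other well-known long noncoding RNAs, 36 were tested in BAT. Of these, 1 rose and none fell, against 1.0% and 0.677% of all genes. Their median log2 difference was −0.16, against 0.01 over all genes. Below 0 were 26 of the 36 values (72.2%), against 49.4% over all genes. In 4-OHT cells the median was −0.13 and 62.9% of values were below 0, against 0.01 and 48.3% over all genes. In siSetdb1 cells 27.8% were below 0, against 50.7% over all genes, so most lay above 0 there. The gene that rose in BAT was Snhg11, a host gene of small nucleolar RNAs that the annotation classes as protein-coding. It had 1541 and 1933 normalised counts in AKO BAT against 662 and 532 in control BAT (log2 difference 1.54, adjusted p = 0.0131, limma). It had 161 in 4-OHT cells against 203 in ETOH cells, and 173 and 182 in siSetdb1 cells against 194 in siNC cells. In 4-OHT cells 1 of 35 was at least 2-fold lower, against 1.65% of all genes. This was H19, an imprinted RNA, with 4785 normalised counts against 10341 in ETOH cells. H19 was higher in both AKO BAT libraries, at 54.5 and 49.5 against 11.9 and 8.12 in control BAT, and did not pass the test (log2 difference 2.29, adjusted p = 0.0503, limma). It had 865 and 446 in siSetdb1 cells, on either side of the 533 in siNC cells (adjusted p = 0.953, limma). In siSetdb1 cells none of 36 was called (median 0.11).

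Levels per length were compared within each group as RPKM, which is CPM per kilobase of exon. In AKO BAT the order was Gm10241 (81.1 ± 19.5, SD, n = 2), Gm10076 (63.5 ± 12.9), Malat1 (25.4 ± 5.40), Neat1 (18.6 ± 1.34) and Gm14267 (5.57 ± 0.57), with the other 3 between 0.279 and 0.341. In control BAT it was Neat1 (83.6 ± 1.63, SD, n = 2), Gm10241 (77.1 ± 2.53), Gm10076 (57.0 ± 32.9), Malat1 (36.7 ± 7.84) and Gt(ROSA)26Sor (18.4 ± 8.75), with the other 3 at most 0.0214. Neat1 was thus the first in control BAT and the fourth in AKO BAT. Gm10241 and Gm10076 did not differ beyond their SDs in either group, nor did Gt(ROSA)26Sor, 9130204K15Rik and Gm13284 in AKO BAT. In siSetdb1 cells the order began with Gm10241 (112 ± 21.2, SD, n = 2), Neat1 (73.9 ± 2.11), Gm10076 (36.3 ± 5.82) and Malat1 (28.6 ± 3.23), and in siNC cells with Neat1 (88.8), Gm10241 (47.3), Malat1 (28.8) and Gm10076 (12.4). In 4-OHT and ETOH cells Malat1 stood first at 1298 and 1554, above Gm10076 (32.1) and Neat1 (25.5) in 4-OHT cells and above Neat1 (31.3) and Gm10076 (11.1) in ETOH cells.

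The genes most like each member were found among 12825 genes by the distance between their log2 differences from control over the 5 Setdb1-depleted libraries. Nearest to Neat1 were Kif22, Gspt2 and Spag4, at distances of 0.30, 0.43 and 0.44 on the log2 scale. Malat1 had Marveld1, Mapkapk2 and Glis2 within 0.15. Gm14267 had no close match, the nearest being Ighm at 4.67, Tnfrsf22 at 6.03 and Elovl3 at 6.13, nor had Gt(ROSA)26Sor, with Rpl29, C920006O11Rik and Gm28373 at 4.82 to 5.07. Gm10076 had Gm48990, Hcar2 and Gm7816 at 0.88 to 0.98, of which Gm48990 and Gm7816 are processed pseudogenes. Gm10241 had Rnd1, Gm6851 and Egflam at 0.97 to 1.15, of which Gm6851 is one too. 9130204K15Rik and Gm13284 were too low for this measure.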

How the data were processed

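Per the submitters' processing notes, featureCounts 2.0.3, STAR 2.7.10a, Trimmomatic 0.39 and DESeq2 1.36.0 were used with build GRCm38/mm10, with no role or order given; the labels' protocols give TRIzol RNA, oligo(dT) enrichment and an NEBNext Ultra II kit. The authors deposited raw counts for 4-OHT cells and, in all tables, a signal in which each library's counts are multiplied by 1 factor, called normalised count here. Dividing by it gave whole reads for 99.9% to 100% of values (tolerance 0.05) and equalled the deposited counts in 4-OHT cells. The 2 siRNA tables were joined through siNC, whose reads were the same for 19381 of 19381 genes in both. The authors' FPKM, log2 fold changes, p-values and gene lengths in the deposited tables were not used for results. Of 29386 gene identifiers, 29359 are in GENCODE M21, which gave positions, biotypes, exon lengths and sequences.

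Each experiment was fitted alone. In BAT and siRNA cells, limma 3.58.1 (R 4.3.3) was run on log2(normalised count + 1) for genes with at least 10 in 2 libraries (BAT) or 1 (siRNA), calling at an adjusted p below 0.05; low genes' fold changes are understated on this scale. siRNA cells leave 1 residual degree of freedom, and siNC is assumed to vary like siSetdb1. 4-OHT cells, with 1 library a group, have no test: log2 ratios of TMM-scaled CPM (edgeR 4.0.16, prior count 2) for genes with at least 50 counts. DESeq2 1.42.0 and edgeR's quasi-likelihood test on recovered reads, other scalings, filters and pseudocounts, and leaving out each library were alternatives. The fits were checked on simulated counts with 1 spread for all genes and changes set in genes averaging at least 50 counts. In simulated BAT, 29% of 2-fold and 100% of 4-fold changes were called, with 3 false calls. In simulated siRNA cells these were 96% and 100%, with 12 false calls. The single spread may make these shares too high for the data. Setdb1, with a log2 difference of −1.02 in siRNA cells, was not called in the main fit. A gene not called in BAT or in siRNA cells may therefore still differ 2-fold. Intervals of ratios are 95% exact binomial ones and cover counting error only, since reads carry no molecular identifiers. The genes, lists and neighbours were chosen with earlier results of these data known. Named were the 8 genes, list genes called, neighbours within 100 kb that were called or past 2-fold in every depleted library with the nearest measured ones, and the 3 genes most alike; H19 was named after its values were seen. The values of 1 neighbouring gene are not reported here.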

Additional observations from a re-analysis of the deposited data

Results flagged for a closer look

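Gt(ROSA)26Sor and Gm10241 differed in direction between experiments; the difference itself was not tested, since the 4-OHT experiment has 1 library a group. Gt(ROSA)26Sor stood at 1.99% of its control in AKO BAT, where both libraries were below both controls, at 2230% of ETOH in 4-OHT cells, and at 90.5% of siNC in siSetdb1 cells, whose libraries lay on either side of siNC. Gm10241 stood at 112% of control in AKO BAT, where the groups overlapped, at 24.7% of ETOH in 4-OHT cells and at 233% of siNC in siSetdb1 cells, where both libraries were above siNC. The Sumo2 counts that moved against Gm10241 are given with it.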

How the results depend on the processing

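The number of genes called in BAT, 243, became 651 with DESeq2 and 11 with no filter on low counts, and ranged from 22 to 157 when 1 library was left out (157 and 92 without AKO 1 and 2, 24 and 22 without control 1 and 2). The replicate numbers did not pair the libraries (r = −0.02 between deviations of AKO 1 and control 1), and with a replicate block 299 genes were called. No paired analysis was possible in the cell experiments because their groups share fewer than 2 numbers. In siRNA cells 6 calls became 11 with DESeq2, 19 with TMM scaling, 37 with edgeR, 29 with a minimum of 50, and 0 by limma with no filter, with 770 genes at an unadjusted p below 0.05 in the filtered fit. In 4-OHT cells 410 genes past 2-fold became 1382 with a minimum of 10 counts. Setd5, Rab11fip4, Snhg11 and Setdb1 kept their BAT call in 8 of 11 alternatives each, Rbm14 and Clk1 in 7 of 11 and Mir365-2 in 4 of 8. Their direction was the same throughout, and each lost its call with no filter. Setd5, Rab11fip4, Snhg11 and Setdb1 otherwise lost it only without either control library. Rbm14 also lost it without AKO 1, Clk1 without AKO 2, and Mir365-2 without either AKO library and with the block. In siRNA cells the log2 difference of Setdb1 was −1.02 in the main fit and with DESeq2, and −1.03 with edgeR. There its call depended on the setting. It was called with DESeq2, TMM scaling, edgeR, a minimum of 50 or a pseudocount of 5, and not in the main fit or with no filter. Of 20 member differences, 16 kept their sign in all settings; Gm10076 and Gm10241 in BAT and Malat1 and Gt(ROSA)26Sor in siRNA cells did not when 1 library was left out. Gm14267 in BAT ranged from 5.78 to 9.26 on the log2 scale, since its controls hold 1 read. With 1 or 2 reads in a control, 9130204K15Rik and Gm13284 have no reliable size of change.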

Other observations

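The 8 genes were a small part of the noncoding genes measured. Of 313 lincRNA genes tested, 5 were higher and 3 lower in AKO BAT (1.60% and 0.958%), and of 304 antisense genes 4 and 2 (1.32% and 0.658%), against 125 and 88 of 12723 protein-coding genes (0.982% and 0.692%). Among 511 genes of the plain processed pseudogene class 5 were higher and 1 lower (0.978% and 0.196%). Among 131 of the other pseudogene classes, transcribed processed ones included, 4 were higher (3.05%) and none lower. Of 170 processed transcript genes none was higher and 1 lower (0.588%), and of 170 TEC (awaiting experimental testing) genes 1 and 2 (0.588% and 1.18%). Over the lincRNA, antisense, processed transcript, TEC and pseudogene classes 28 genes were called by limma, 19 higher and 9 lower. Over all 14466 genes tested, 243 (1.68%) were called, 145 higher (1.0%) and 98 lower (0.677%). Among the 28 are 3 of the 8 genes described above. No test compared the classes.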
